A study of Mus musculus with 10 samples.

Results

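The genes described are 38 that dividing cells use to copy their chromosomes and to separate them, out of 54256 genes with a deposited value. They were chosen by symbol, as known cell cycle genes, and each of the 38 symbols had exactly 1 row. The list holds 18 genes of the entry into and passage through S phase and 20 genes of mitosis. Their RNA was measured in the infundibulum, the funnel of the oviduct that opens beside the ovary, of C57BL/6 mice aged 8 to 10 weeks. The mice received saline (titled WT) or recombinant murine prolactin (rmPRL), a pituitary hormone, over 7 days, with 5 libraries in each group. Each library pooled both infundibula of 2 animals, so it averages 4 infundibula and replicates are separate pools. The labels place every library at proestrus, the stage before ovulation, except rmPRL library 2, which is at diestrus. The comparison asks which transcripts of this tissue differ after rmPRL. Levels are in TPM, a measure of transcript abundance corrected for gene length and scaled to a common total, so they can be set beside each other between genes, but they keep no depth, and the counting error of the lower genes is unknown.

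A cell that commits to division passes from G1 into S phase, where each chromosome is copied, and then through G2 into mitosis. Transcription of the genes needed runs in waves: E2F factors switch on the S phase genes once cyclin-dependent kinases have inactivated the retinoblastoma family, and later genes are switched on through CHR and CCAAT elements bound by the MuvB complexes and NF-Y. In resting cells the DREAM complex keeps both waves low. In a tissue as a whole, mitotic transcripts therefore report mainly on the few cells in cycle, whereas part of the replication machinery is also made in cells that do not divide. The oviduct epithelium holds secretory and multiciliated cells, and multiciliated cells use part of the mitotic programme, without dividing, while they amplify their centrioles.

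All libraries carried the markers of this tissue: Ovgp1, the oviduct glycoprotein of secretory cells, lay between 4923 and 10134 TPM and Foxj1, the regulator of motile cilia, between 552 and 821 TPM. The summed secretory markers Ovgp1 and Pax8 were at 4975, 5289.8 and 5507 TPM in rmPRL libraries 2, 4 and 5, below the 7279 to 10227 TPM of saline, whereas rmPRL library 1 held 8703 and library 3 held 9112 TPM. Nearly all of this sum was Ovgp1. Pax8 lay between 87.8 and 96.3 TPM in saline and at 114, 52.3, 78.1, 91.4 and 74.9 TPM in rmPRL libraries 1 to 5. It was thus below saline in libraries 2, 3 and 5, within it in library 4 and above it in library 1. Some libraries also held markers of the neighbouring ovary. The sum of 4 oocyte markers was 118 TPM in rmPRL library 2, 15.1 in saline library 4, 9.02 in saline library 3 and between 1.16 and 1.85 in the other libraries. The sum of 7 granulosa cell markers was 301, 152 and 58.3 TPM in the same 3 libraries and between 15.7 and 22.5 in the rest. Most of it was Inha, at 209, 128 and 44.9 TPM in these libraries. Of the 7 markers, 4 were at their highest in rmPRL library 2. Fshr, Inhba and Cyp19a1 were higher in saline library 4 than there, and no higher than 2.72 TPM in either. Granulosa cells of growing follicles divide, and rmPRL library 2 is also the library labelled diestrus, so stage, ovarian RNA and this library cannot be told apart. Results are therefore given with and without it.

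The promoters of the genes show which of the transcription waves they carry letters for, and 5 that hold such letters are printed as examples. RefSeq promoter windows on GRCm38.p6, from 250 bases before to 50 after the transcript start, were matched by symbol for 31 of the 38 genes (33 windows, 300 bases each). The sequences printed are the 250 bases before the start, 5′ to 3′ on the gene's own strand. In 30 of the 33 windows the last 25 bases lay in a transcript of the gene in the GENCODE vM21 annotation. The exceptions were Mcm5, Mcm6 and Aurka, so the start of these genes is uncertain. For the 3 mitotic genes, capitals mark CHR letters (TTTGAA or TTCGAA, either strand) and the CCAAT box (either strand). For the 2 helicase genes, capitals mark E2F letters (TTTCCCGC, TTTCGCGC, TTTGCCGC or TTTGGCGC, either strand), and some of these matches overlap each other.
Cdk1: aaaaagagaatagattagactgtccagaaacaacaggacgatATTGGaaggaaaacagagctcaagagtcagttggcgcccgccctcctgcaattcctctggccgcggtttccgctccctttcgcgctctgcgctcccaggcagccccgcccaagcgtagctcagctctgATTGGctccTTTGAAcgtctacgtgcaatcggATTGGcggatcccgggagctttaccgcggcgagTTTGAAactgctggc
Cdc20: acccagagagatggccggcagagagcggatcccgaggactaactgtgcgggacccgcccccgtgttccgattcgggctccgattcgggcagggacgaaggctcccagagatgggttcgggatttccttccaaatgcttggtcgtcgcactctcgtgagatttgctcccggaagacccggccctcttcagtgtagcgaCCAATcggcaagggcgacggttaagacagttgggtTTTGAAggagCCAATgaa
Top2a: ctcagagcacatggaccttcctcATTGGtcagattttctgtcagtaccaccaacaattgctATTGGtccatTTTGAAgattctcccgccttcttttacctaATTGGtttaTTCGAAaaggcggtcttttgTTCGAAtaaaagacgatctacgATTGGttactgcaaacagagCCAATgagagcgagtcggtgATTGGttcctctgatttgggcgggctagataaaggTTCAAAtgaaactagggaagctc
Mcm5: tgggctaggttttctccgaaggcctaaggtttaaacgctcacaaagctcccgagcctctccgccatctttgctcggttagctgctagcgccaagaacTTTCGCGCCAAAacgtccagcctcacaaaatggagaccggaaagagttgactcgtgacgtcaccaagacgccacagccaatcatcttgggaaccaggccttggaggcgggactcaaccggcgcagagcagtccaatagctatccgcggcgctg
Mcm6: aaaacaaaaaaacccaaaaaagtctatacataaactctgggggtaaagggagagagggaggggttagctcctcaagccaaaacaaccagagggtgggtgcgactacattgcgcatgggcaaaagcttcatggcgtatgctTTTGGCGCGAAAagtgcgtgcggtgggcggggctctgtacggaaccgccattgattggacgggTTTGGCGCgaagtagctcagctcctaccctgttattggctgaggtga
These lie at chr10:69352913-69353162 (minus strand), chr4:118437344-118437593 (minus), chr11:99024190-99024439 (minus), chr8:75109259-75109508 (plus) and chr1:128359706-128359955 (minus). The Cdk1 stretch holds 2 CHR and 3 CCAAT matches, with 1 E2F match left in lower case, that of Cdc20 holds 1 and 2, and that of Top2a holds 4 and 6. The Mcm5 stretch holds 2 E2F matches that share letters, and that of Mcm6 holds 3, of which a pair shares letters. Neither of these 2 helicase stretches holds CHR letters. Among helicase genes not printed, the window of Mcm2 holds 1 CHR and 0 E2F matches, and 1 window of Mcm7 holds 1 CHR and 2 E2F matches. The windows of Pcna and E2f1, S phase genes that also recur below, hold 0 E2F matches.

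Across all matched genes the S phase and mitotic sets differed in these letters. CHR letters were present in 12 of 16 mitotic windows (75.0%), in 2 of 17 S phase windows (11.8%) and in 19.2% of all 32851 windows in the table. E2F letters were present in 7 of 17 S phase windows (41.2%), in 1 of 16 mitotic windows (6.2%), that of Cdk1, and in 2.3% of all windows. The CCAAT box was common in both sets, in 14 of 16 mitotic and 12 of 17 S phase windows against 37.4% of all windows, and all 12 mitotic windows with CHR letters also held it. Ccnb1 held 2 CCAAT boxes and no CHR letters in its window, and Birc5 and Nusap1 held neither. A match describes the letters only, and no match says nothing about binding.

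**Figure D1:**
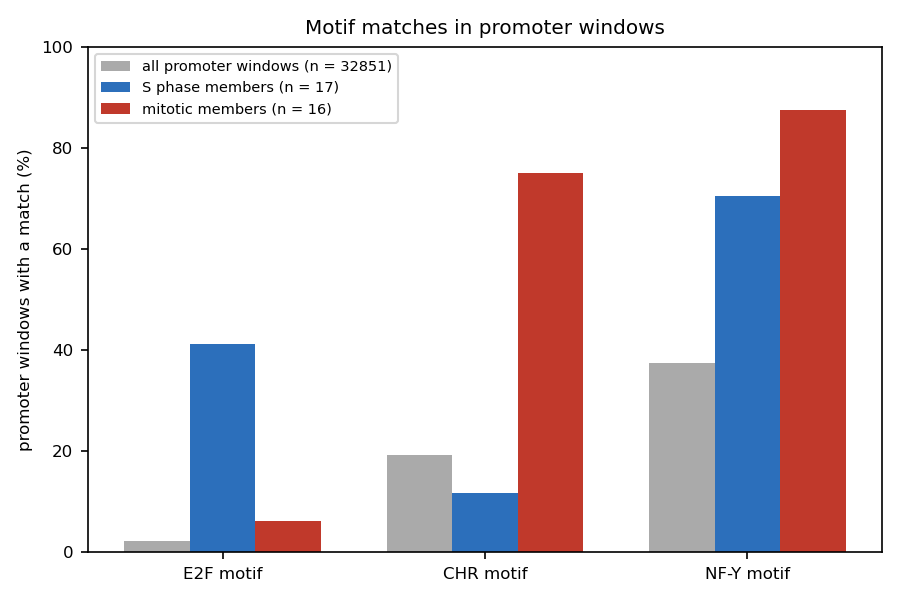
Share of promoter windows with at least 1 match to each motif (vertical axis, percent), for all windows (grey), S phase genes (blue, 17 windows) and mitotic genes (red, 16 windows); NF-Y stands for the CCAAT box. CHR matches were in 75.0% of mitotic windows and 11.8% of S phase windows, E2F matches in 6.2% and 41.2%.

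In saline the S phase genes were the more abundant set. The 18 S phase genes summed to 276 ± 12.5 TPM and the 20 mitotic genes to 81.2 ± 16.0 TPM (SD, n = 5). Pcna, the sliding clamp of the DNA polymerases, was the highest of the 38 at 84.0 ± 6.27 TPM in saline, ahead of the helicase subunit Mcm7 at 36.9 ± 3.38 TPM (SD, n = 5 each). Slbp, which binds the ends of histone mRNAs, Rrm1, the large subunit of ribonucleotide reductase, and Mcm4 had saline means between 21.7 and 25.7 TPM. Cdk1, the kinase that drives entry into mitosis, was the highest mitotic gene at 18.3 ± 5.01 TPM (SD, n = 5). Its mitotic partner cyclins were several times lower, with Ccnb1 at 3.14 ± 1.12 and Ccnb2 at 2.71 ± 0.843 TPM (SD, n = 5 each). Mki67, the chromosome surface protein widely used as a mark of cycling cells, was at 1.62 ± 0.479 TPM (SD, n = 5). The lowest were Ccne1 and Ccne2, the cyclins of S phase entry, the licensing factor Cdc6 and the checkpoint kinase Bub1, with saline means between 0.560 and 0.844 TPM.

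The libraries given rmPRL lay on both sides of saline for these genes. For 36 of the 38 genes the highest of all 10 libraries was rmPRL library 2, the exceptions being Mcm4 and Gins2, and for these 36 that library lay above all 5 saline libraries. Among the 35 genes that passed the filter for the test (at least 1 TPM in at least 5 libraries), it lay above all saline libraries for 33 and below them for 0, where 24.2% and 26.0% of all 16131 genes tested did. On the other side, rmPRL library 1 lay below all 5 saline libraries for 19 of the 20 mitotic genes (18 of the 19 tested, against 17.9% of all genes) and rmPRL library 4 for 18 (17 of the 19 tested, against 21.6%). Of the 18 S phase genes, libraries 1 and 4 lay below all saline libraries for 6 and 4 (4 and 3 of the 16 tested). Library 3 lay below all saline libraries for 5 and above them for 1 of the 19 tested mitotic genes, against 15.0% and 11.1% of all genes. Library 5 had a pattern of its own, above all saline libraries for 14 of 18 S phase genes (12 of the 16 tested, against 18.1% of all genes) but for 3 of 20 mitotic genes. In a bulk library, fewer cells in cycle and less of these RNAs per cell cannot be told apart.

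**Figure D2:**
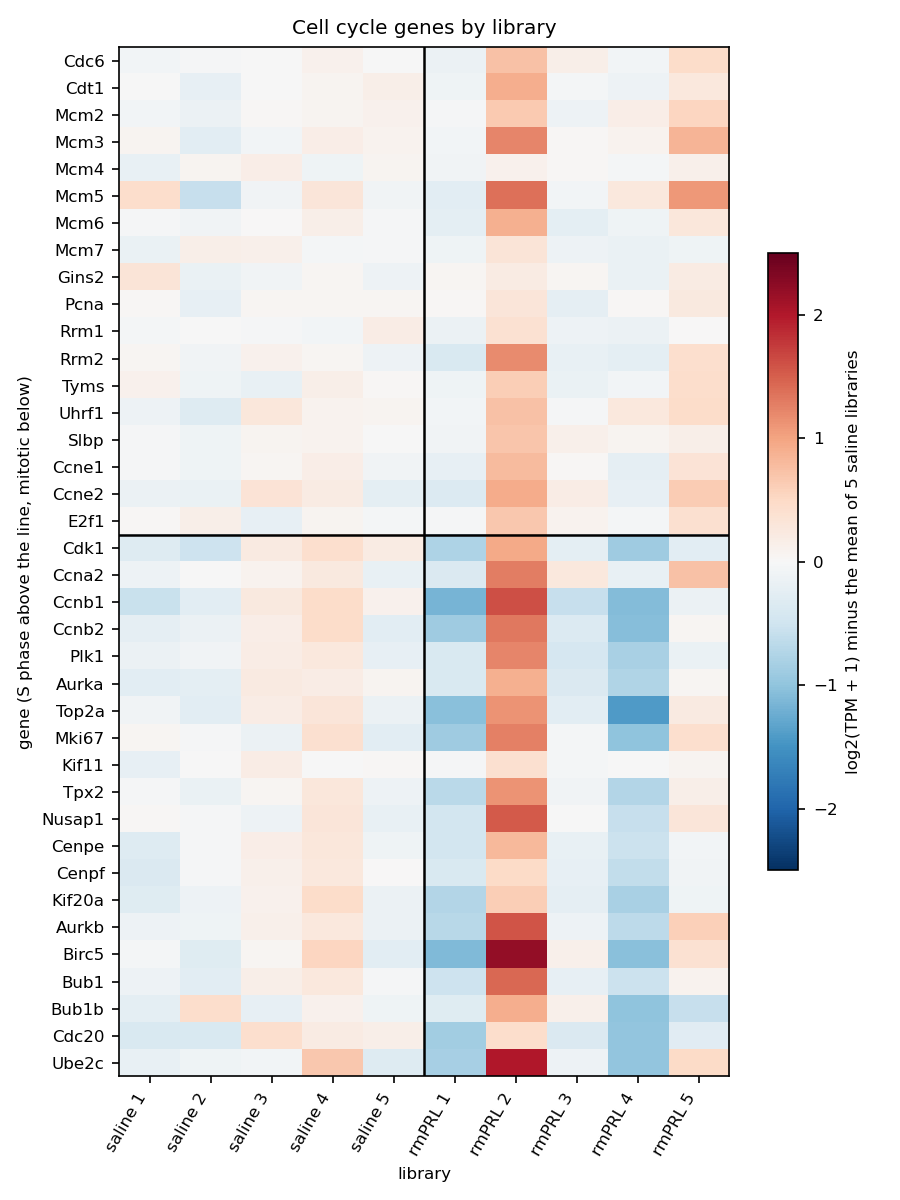
Difference of each gene (rows) from the mean of the 5 saline libraries in each library (columns), on the log2(TPM + 1) scale; red is above and blue below that mean, with S phase genes above the black line. The column of rmPRL library 2 is red for nearly every gene, and those of rmPRL libraries 1 and 4 are blue for nearly every mitotic gene.

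The 20 mitotic genes together summed to 65.5, 68.4, 90.6, 104 and 77.9 TPM in saline libraries 1 to 5 and to 44.2, 197, 68.9, 38.1 and 83.2 TPM in rmPRL libraries 1 to 5. Relative to the saline mean these rmPRL sums were 0.544, 2.43, 0.848, 0.469 and 1.02-fold. The 18 S phase genes summed to 272, 255, 286, 284 and 281 TPM in saline and 261, 401, 255, 272 and 330.4 TPM in rmPRL, of which Pcna alone is a large part. The mitotic sum as a percentage of the S phase sum, a ratio within each library which no scale factor per library can move, was 24.1, 26.8, 31.7, 36.6 and 27.7% in saline. In rmPRL it was 16.9, 49.1, 27.0, 14.0 and 25.2%, so libraries 1 and 4 lay below and library 2 above the whole saline range, and libraries 3 and 5 within it.

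Licensing of replication origins is done by Cdc6 and Cdt1, which load the ring of Mcm2 to Mcm7, the helicase that later opens the DNA with the help of GINS, of which Gins2 is a subunit. Mcm3 stood at 6.20, 4.73, 5.59, 6.78 and 6.31 TPM in saline libraries 1 to 5 and at 5.55, 15.0, 6.07, 6.31 and 11.4 TPM in rmPRL libraries 1 to 5. Mcm5 stood at 6.08, 2.53, 3.95, 5.42 and 3.95 TPM in saline libraries 1 to 5 and at 3.35, 12.6, 4.00, 5.33 and 10.1 TPM in rmPRL libraries 1 to 5. Both were highest in rmPRL libraries 2 and 5 and overlapped with saline in the other 3. Mcm2 stood at 8.33, 7.81, 9.00, 9.17 and 9.54 TPM in saline libraries 1 to 5 and at 8.53, 14.3, 7.94, 9.99 and 13.2 TPM in rmPRL libraries 1 to 5, with the same pair of libraries on top. Mcm6 stood at 13.1, 12.6, 13.5, 15.0 and 13.1 TPM in saline libraries 1 to 5 and at 11.2, 25.6, 11.2, 12.5 and 16.5 TPM in rmPRL libraries 1 to 5. Mcm7 and Mcm4, the most abundant subunits, varied least: Mcm7 stood at 32.5, 40.6, 40.0, 35.4 and 35.9 TPM in saline libraries 1 to 5 and at 34.2, 46.5, 33.7, 32.7 and 34.2 TPM in rmPRL libraries 1 to 5. Mcm4 stood at 18.8, 22.7, 24.5, 20.0 and 22.7 TPM in saline libraries 1 to 5 and at 20.3, 23.5, 22.0, 21.0 and 23.7 TPM in rmPRL libraries 1 to 5, and the groups overlapped throughout. In rmPRL library 2 the subunits of this one ring were not shifted in proportion: its 12.6 TPM of Mcm5 lay above the saline maximum of 6.08, whereas its 23.5 TPM of Mcm4 lay within the saline range. Cdt1 ranged from 2.73 to 3.75 TPM in saline and from 2.92 to 7.03 in rmPRL, Cdc6 from 0.602 to 0.803 and from 0.516 to 1.78, and Gins2 from 9.96 to 14.5 and from 10.0 to 13.3.

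Among the genes that feed and accompany the replication fork, Rrm2 varied most between libraries and Rrm1 and Pcna least. Pcna stood at 85.6, 72.8, 87.2, 87.1 and 87.1 TPM in saline libraries 1 to 5 and at 85.2, 104, 71.3, 85.9 and 100.0 TPM in rmPRL libraries 1 to 5. Library 2 of rmPRL was the highest and library 3 the lowest of all 10. Rrm2, the small subunit of ribonucleotide reductase, whose level limits the enzyme to S phase, ranged from 3.59 to 4.41 TPM in saline and from 2.84 to 10.3 in rmPRL, while its partner Rrm1 ranged from 21.6 to 25.9 and from 20.4 to 29.9. Tyms, which makes thymidylate, ranged from 11.5 to 14.7 TPM in saline and from 11.5 to 20.7 in rmPRL. Uhrf1, which recruits the maintenance DNA methyltransferase to new DNA, ranged from 11.6 to 18.2 and from 14.0 to 25.2, and Slbp from 23.7 to 27.4 and from 24.0 to 42.4. The regulators of S phase entry were low. E2f1 stood at 3.03, 3.36, 2.39, 3.15 and 2.82 TPM in saline libraries 1 to 5 and at 2.85, 5.25, 3.17, 2.79 and 4.18 TPM in rmPRL libraries 1 to 5, where E2f1 is the factor that activates the S phase genes. Ccne1 stood at or below 0.964 TPM in all libraries but rmPRL library 2, where it was at 1.70, and Ccne2 ranged from 0.431 to 2.45 TPM in rmPRL.

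**Figure D3:**
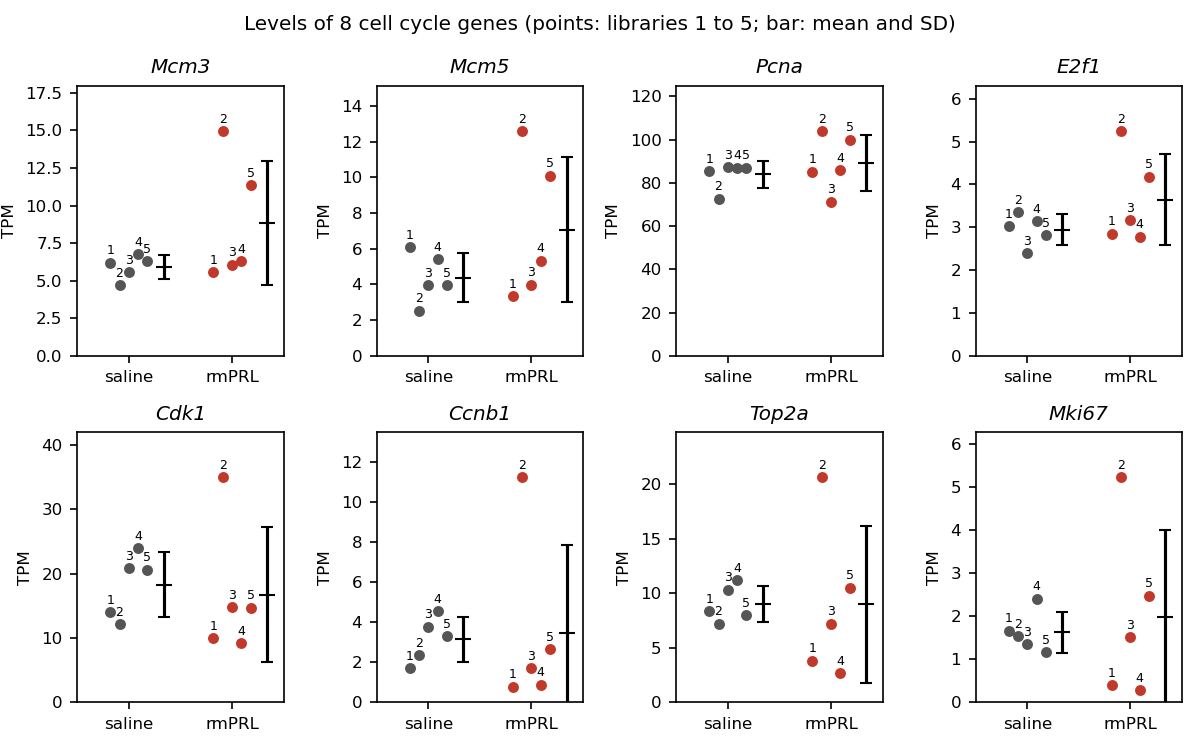
TPM of 4 S phase genes (upper row) and 4 mitotic genes (lower row) in each library, numbered 1 to 5 within its group, with the group mean and SD as a bar that is drawn no lower than 0. Library 2 is the highest rmPRL point in every panel, and libraries 1 and 4 are the lowest rmPRL points in the 4 mitotic panels.

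Entry into mitosis needs Cdk1 with cyclins A2 and B, and the kinases Plk1 and Aurka, which ready the centrosomes and spindle. Cdk1 stood at 14.0, 12.1, 20.8, 23.9 and 20.6 TPM in saline libraries 1 to 5 and at 10.0, 34.9, 14.8, 9.15 and 14.7 TPM in rmPRL libraries 1 to 5. Ccnb1 stood at 1.72, 2.37, 3.77, 4.55 and 3.31 TPM in saline libraries 1 to 5 and at 0.789, 11.2, 1.71, 0.892 and 2.65 TPM in rmPRL libraries 1 to 5. For both genes rmPRL libraries 1 and 4 were the lowest of all 10 and library 2 the highest. Ccna2, which acts in both S phase and mitosis, did not follow the cyclins B in every library, since rmPRL libraries 3 and 5 lay above all saline libraries. Ccna2 stood at 4.18, 4.59, 4.98, 5.71 and 3.99 TPM in saline libraries 1 to 5 and at 3.40, 12.8, 5.78, 4.01 and 8.37 TPM in rmPRL libraries 1 to 5. Ccnb2 ranged from 2.03 to 4.02 TPM in saline and from 0.748 to 8.09 in rmPRL, Plk1 from 1.64 to 2.67 and from 0.754 to 6.14, and Aurka from 2.71 to 4.24 and from 1.66 to 7.27, with library 4 lowest and library 2 highest for all 3.

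Among genes of the mitotic chromosome and spindle, Top2a, the topoisomerase that untangles sister chromatids, was the most abundant. Top2a stood at 8.39, 7.22, 10.3, 11.2 and 7.98 TPM in saline libraries 1 to 5 and at 3.83, 20.6, 7.22, 2.70 and 10.5 TPM in rmPRL libraries 1 to 5. Mki67 stood at 1.66, 1.53, 1.35, 2.41 and 1.16 TPM in saline libraries 1 to 5 and at 0.396, 5.22, 1.51, 0.283 and 2.47 TPM in rmPRL libraries 1 to 5. In both, libraries 1 and 4 of rmPRL lay below every saline library and library 2 above. The chromosomal passenger complex, which corrects faulty spindle attachments, is represented by the kinase Aurkb and its partner Birc5. Birc5 stood at 2.87, 2.24, 3.14, 4.80 and 2.34 TPM in saline libraries 1 to 5 and at 0.866, 17.4, 3.35, 0.929 and 4.17 TPM in rmPRL libraries 1 to 5, the widest range of the list on a log scale. Aurkb ranged from 1.29 to 2.03 TPM in saline and from 0.577 to 6.56 in rmPRL. The spindle assembly factors Tpx2 and Nusap1 spanned 1.69 to 2.68 and 0.837 to 1.60 TPM in saline, and 0.823 to 5.64 and 0.407 to 5.09 in rmPRL. The kinetochore proteins Cenpe and Cenpf, and Kif20a, a kinesin of cell separation, reached 2.85, 2.01 and 4.66 TPM in rmPRL library 2 and no more than 1.65, 1.57 and 4.03 TPM in saline. Kif11, the kinesin that pushes spindle poles apart, stood out by its small spread. Kif11 stood at 5.85, 6.80, 8.01, 6.89 and 7.09 TPM in saline libraries 1 to 5 and at 6.76, 9.38, 6.63, 6.79 and 7.34 TPM in rmPRL libraries 1 to 5, so that it was the 1 mitotic gene for which rmPRL library 1 was not below saline.

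Exit from mitosis is set by the spindle checkpoint, with the kinase Bub1 and its relative Bub1b, and by the anaphase-promoting complex, with its activator Cdc20 and the ubiquitin-conjugating enzyme Ube2c. Cdc20 stood at 5.33, 5.32, 10.1, 8.57 and 8.18 TPM in saline libraries 1 to 5 and at 3.52, 10.2, 5.41, 3.18 and 5.83 TPM in rmPRL libraries 1 to 5. Its saline libraries 3 to 5 were high and rmPRL libraries 1 and 4 were the lowest of all 10. Ube2c stood at 1.82, 2.01, 2.07, 4.12 and 1.58 TPM in saline libraries 1 to 5 and at 0.797, 11.9, 1.93, 0.627 and 3.49 TPM in rmPRL libraries 1 to 5. Bub1b stood at 4.63, 8.09, 4.75, 6.20 and 5.17 TPM in saline libraries 1 to 5 and at 4.39, 11.5, 6.24, 2.31 and 3.48 TPM in rmPRL libraries 1 to 5, and here libraries 4 and 5 of rmPRL were the lowest. Bub1 stayed at or below 1.07 TPM outside rmPRL library 2, where it was at 3.65.

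None of the tested cell cycle genes passed the test between the groups, and the intervals give the range of differences that 5 libraries per group leave possible. By limma on log2(TPM + 1), two-sided and with Benjamini-Hochberg adjustment over 16131 genes, 0 of the 35 passed an adjusted threshold of 0.05 and 0 fell below an unadjusted 0.05, where 0.0248% and 16.0% of all genes did. The smallest p was that of Mcm3, which averaged 5.92 ± 0.790 TPM with saline against 8.85 ± 4.14 TPM with rmPRL (mean ± SD, n = 5 per group). Its difference on the log2 scale was 0.42 (SE 0.235, 95% interval from -0.09 to 0.94, adjusted p = 0.384 by limma), and that of Mcm5 was 0.48 (SE 0.321, 95% interval from -0.23 to 1.19, adjusted p = 0.457 by limma). On the log2(TPM + 1) scale of the fit, 14 of 16 tested S phase genes had a higher and 13 of 19 mitotic genes a lower mean in rmPRL, with median log2 differences of 0.17 and -0.11, beside -0.03 over all genes tested. Of all 16131 genes on that scale, 7011 were higher and 9120 lower in rmPRL. By mean TPM, where rmPRL library 2 weighs more, 15 of 16 S phase genes were higher and only 8 of 19 mitotic genes lower, so the direction of the mitotic genes depended on the scale. Ccnb1, Ccnb2, Plk1, Mki67 and Tpx2 had a higher mean TPM and a lower mean log2 value in rmPRL. The groups overlapped for all 38 genes, where 1.49% of all genes tested had every rmPRL library above saline and 1.57% every one below (3.07% in all). They also overlapped for all 38 without rmPRL library 2, where the shares were 1.77% and 2.41%.

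The intervals were wide for most mitotic genes, up to that of Birc5 (from -1.08 to 1.31 on the log2 scale), though that of Kif11 was narrow (from -0.16 to 0.31). Mki67 averaged 1.62 ± 0.479 TPM with saline against 1.98 ± 2.02 TPM with rmPRL (mean ± SD, n = 5 per group), which came to -0.05 (SE 0.384, 95% interval from -0.90 to 0.79, adjusted p = 0.958 by limma) on the log2 scale. The log2 difference of Top2a was -0.28 (SE 0.406, 95% interval from -1.18 to 0.62, adjusted p = 0.748 by limma). That of Cdk1 was -0.24 (SE 0.321, 95% interval from -0.95 to 0.47, adjusted p = 0.724 by limma), and that of Ccnb1 was -0.27 (SE 0.470, 95% interval from -1.31 to 0.77, adjusted p = 0.793 by limma). Cdc20 lay furthest below saline, with a log2 difference of -0.42 (SE 0.264, 95% interval from -1.0 to 0.17, adjusted p = 0.437 by limma). For Pcna the interval was as narrow, with a log2 difference of 0.08 (SE 0.0987, 95% interval from -0.14 to 0.30, adjusted p = 0.705 by limma), and for E2f1 it was 0.21 (SE 0.148, 95% interval from -0.11 to 0.54, adjusted p = 0.477 by limma). The 3 genes below the filter differed by 0.22 for Cdc6, 0.14 for Ccne1 and 0.06 for Bub1 on the same scale (two-sided exact permutation tests over 252 assignments, n = 5 each, p = 0.27, 0.556 and 0.952).

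**Figure D4:**
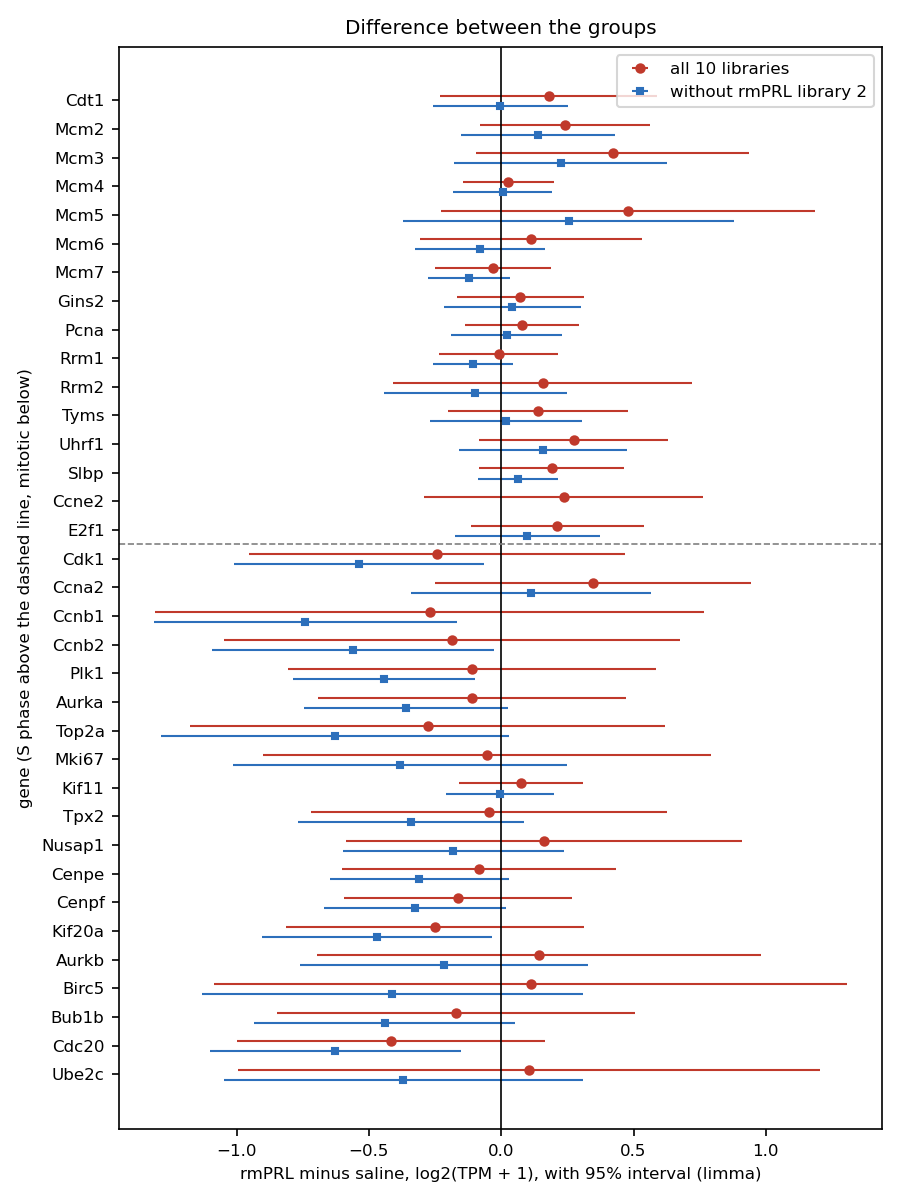
Difference between the groups (rmPRL minus saline, log2(TPM + 1)) with its 95% interval from limma for each tested gene, with all 10 libraries (red circles) and without rmPRL library 2 (blue squares; Ccne2 then fell below the filter). Every red interval includes 0, and the blue intervals of 6 mitotic genes do not.

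Without rmPRL library 2, the library at diestrus, the median of the mitotic genes lay lower and that of the S phase genes near 0. Of 19 mitotic genes tested then, 18 had a lower value in rmPRL both by mean TPM and on the log2 scale, Ccna2 being the exception on both, with a median log2 difference of -0.38 beside -0.03 over all genes. Of these, 6 were lower at an unadjusted p under 0.05 and 0 passed the adjusted threshold, where 8.01% and 0.00625% of 16010 genes did (limma). They were Cdc20, Ccnb1, Plk1, Cdk1, Kif20a and Ccnb2. The log2 difference of Cdc20 was -0.63 (SE 0.214, limma unadjusted p = 0.0145, adjusted p = 0.335), that of Ccnb1 -0.74 (SE 0.258, limma unadjusted p = 0.0164, adjusted p = 0.335) and that of Cdk1 -0.54 (SE 0.213, limma unadjusted p = 0.0296, adjusted p = 0.360). For Mki67 it was -0.38 (SE 0.284, limma unadjusted p = 0.208, adjusted p = 0.573). Of 15 S phase genes tested, 10 had a higher and 5 a lower log2 value, 0 at an unadjusted p under 0.05 in either direction (4.56% of all genes were higher at that level), with a median of 0.02. Without both rmPRL library 2 and saline library 4, the saline library with the most ovarian markers, 15 of 16 tested mitotic genes still had a lower log2 value with a median of -0.33, and 3 of them, Cdc20, Ccnb1 and Plk1, had an unadjusted p under 0.05, where 7.95% of 15867 genes were lower at that level. In the other direction, leaving out rmPRL library 4 gave the mitotic genes a median of 0.05, and leaving out rmPRL library 1 gave them -0.01. Without rmPRL library 1, 2 of 16 S phase genes had an unadjusted p under 0.05 (2929 of 16036 genes in all did), and without rmPRL library 3, 1 of 15 did (3069 of 16010 in all), both below the share over all genes.

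The rmPRL libraries were spread more widely than the saline libraries for most of these genes. The SD of log2(TPM + 1) between libraries was larger in rmPRL than in saline for 19 of 19 mitotic genes and 14 of 16 S phase genes tested, as it was for 43.8% of all genes. Its median over mitotic genes was 0.24 in saline and 0.76 in rmPRL, and over all genes it was 0.16 and 0.14. Without rmPRL library 2 the SD was still larger in rmPRL for 15 of 19 mitotic and 12 of 16 S phase genes, where 37.0% of all genes had that order, with a median of 0.43 for the mitotic genes. These are descriptions with no test, and each group has only 5 libraries.

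Other genes of the cycle were taken from general lists, with Orc4 and Gins4 having the smallest p among those of replication. Of 43 other DNA replication genes, 39 were tested, 0 passed the adjusted threshold, with 4 higher and 1 lower at the unadjusted level, against 6.14% and 9.91% of all genes, and a median log2 difference of 0.05 (limma). Orc4, a subunit of the origin recognition complex, averaged 44.1 ± 4.00 TPM with saline against 52.6 ± 2.17 TPM with rmPRL (mean ± SD, n = 5 per group), higher in all 5 rmPRL libraries than in any saline library (log2 difference 0.25, adjusted p = 0.170 by limma). Gins4, a partner of Gins2 in the GINS complex, averaged 36.1 ± 3.03 TPM with saline against 31.0 ± 1.13 TPM with rmPRL (mean ± SD, n = 5 per group), lower in all 5 than in any saline library (log2 difference -0.21, adjusted p = 0.201 by limma). The next smallest p were those of Chaf1a, which places histones on new DNA, and Tipin, which steadies the fork, with log2 differences of 0.27 and 0.19 (adjusted p = 0.222 and 0.236 by limma). Of 52 other mitotic genes, 40 were tested, 0 passed, and 3 lay lower at the unadjusted level, where 9.91% of all genes did. These 3 were the centrosome kinase Nek2, the condensin subunit Smc4 and the spindle protein Ckap2l (log2 differences of -0.26, -0.14 and -0.48, adjusted p from 0.299 to 0.306 by limma). With all 10 libraries, 23 of the 40 had a lower log2 value, beside 9120 of all 16131 genes tested. Without rmPRL library 2, 35 of these 40 had a lower log2 value and 9 an unadjusted p under 0.05 (limma), where 12.6% of all genes had one.

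Upstream of these waves act the cyclin D and E kinases, the pocket proteins they phosphorylate and the E2F factors these hold. Of 24 G1 cyclins, kinases, E2F factors and pocket proteins with a row, 23 were tested and 0 passed the adjusted threshold, with 2 higher and 3 lower at the unadjusted level (limma), near the 6.14% and 9.91% of all genes. The lower ones were the pocket protein Rbl2, the E2F partner Tfdp2 and the activator E2f2. Rbl2 averaged 31.0 ± 3.19 TPM with saline against 25.9 ± 2.97 TPM with rmPRL (mean ± SD, n = 5 per group), and Tfdp2 averaged 24.2 ± 4.07 TPM with saline against 18.7 ± 3.38 TPM with rmPRL (mean ± SD, n = 5 per group). E2f2 averaged 2.08 ± 0.208 TPM with saline against 1.64 ± 0.170 TPM with rmPRL (mean ± SD, n = 5 per group), and its groups did not overlap. E2f4, a factor that works mainly as a repressor in resting cells, averaged 31.0 ± 1.07 TPM with saline against 34.5 ± 2.87 TPM with rmPRL (mean ± SD, n = 5 per group), with 0.15 on the log2 scale (adjusted p = 0.290 by limma). The other higher one, Tfdp1, an E2F partner, averaged 49.0 ± 2.60 TPM with saline against 54.2 ± 4.20 TPM with rmPRL (mean ± SD, n = 5 per group). All 7 kinase inhibitors were tested and 0 passed. Cdkn1a, the inhibitor that p53 induces, averaged 45.0 ± 4.25 TPM with saline against 50.6 ± 4.68 TPM with rmPRL (mean ± SD, n = 5 per group). Cdkn2b, an inhibitor of Cdk4, averaged 36.5 ± 5.54 TPM with saline against 30.7 ± 3.12 TPM with rmPRL (mean ± SD, n = 5 per group), the smallest p of the 7 (adjusted p = 0.311 by limma).

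Genes by which precursors of multiciliated cells amplify their centrioles were set beside the mitotic genes, because both programmes share regulators. Some of them, Plk4 and Stil included, also serve centriole duplication in dividing cells, so the list is not specific to such precursors. All 10 such genes were tested, and 0 passed the adjusted threshold, while 5 lay lower and 1 higher at the unadjusted level, against 9.91% and 6.14% of all genes, with a median log2 difference of -0.53 beside -0.03 over all genes (limma). The lower calls numbered 3 without saline library 3, 4 or 5, with medians of -0.38, -0.47 and -0.42, 8 without saline library 1, with a median of -0.67, and 2 without saline library 4 and rmPRL library 2 together. Mcidas, a regulator of the multiciliated programme, stood at 2.07, 3.15, 6.96, 4.74 and 7.58 TPM in saline libraries 1 to 5 and at 2.34, 1.91, 3.28, 1.66 and 2.05 TPM in rmPRL libraries 1 to 5, which came to -0.78 on the log2 scale (adjusted p = 0.229 by limma). Plk4, the kinase that starts new centrioles, stood at 5.44, 6.60, 15.1, 13.5 and 13.5 and at 5.28, 7.82, 6.75, 4.66 and 4.81 TPM. Saline libraries 3, 4 and 5 were the highest of all 10 for Plk4 and Mcidas. Deup1, which builds the platform for centriole amplification, and the centriole protein Stil had log2 differences of -0.55 and -0.55 (adjusted p = 0.233 and 0.242 by limma). With array weights 3 of the 10 passed the adjusted threshold, where 270 of all 16131 genes did, and under the other 20 alternatives 0 did. The same 3 were the highest saline libraries for 7 of the 20 mitotic genes, among them Cdk1, Ccnb1, Aurka and Cdc20, whereas for 7 others saline library 5 was the lowest of the saline libraries, among them Mki67, Ccnb2 and Plk1. In rmPRL library 2, where all 20 mitotic genes were highest, the 10 precursor genes summed to 128 TPM, beside 134, 161, 128 and 129.6 TPM in rmPRL libraries 1, 3, 4 and 5, although Plk4 was the highest of the rmPRL libraries there. The part of these precursors in the levels of the mitotic genes was not tested.

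**Figure D5:**
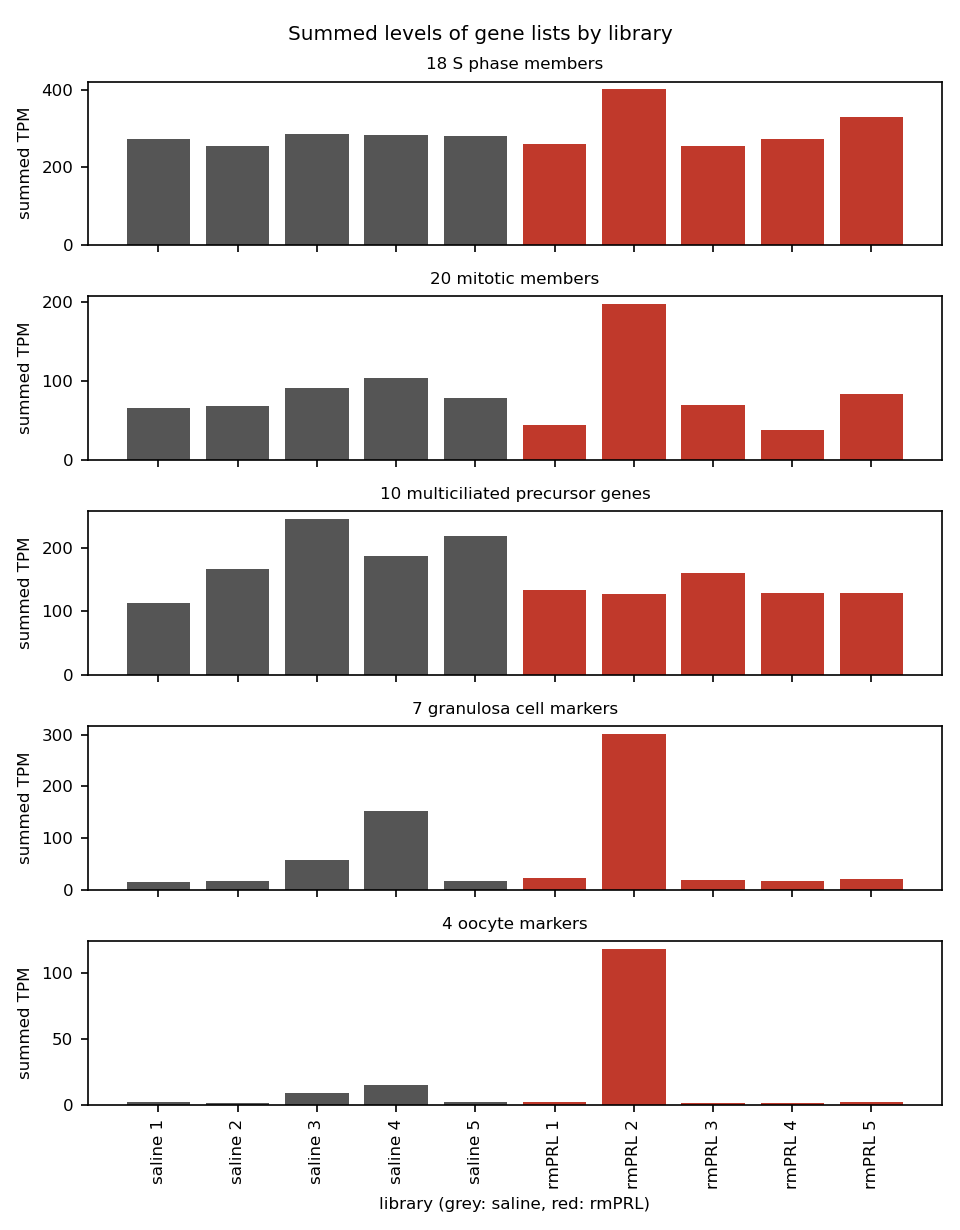
Summed TPM (vertical axes, each from 0) in each library of the 18 S phase genes, the 20 mitotic genes, 10 genes used by multiciliated cell precursors (some also by dividing cells), 7 granulosa cell markers and 4 oocyte markers, with saline in grey and rmPRL in red. The mitotic sum is highest in rmPRL library 2, at 197 TPM, as are the ovarian markers, and lowest in rmPRL library 4, at 38.1 TPM.

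Markers of other cell types that could be in cycle are given beside these levels. The granulosa and oocyte sums were high where the mitotic genes were highest, in rmPRL library 2. Within saline these sums were highest in library 4, which was the highest saline library for 16 of 20 mitotic genes. In the low libraries rmPRL 1 and 4 the granulosa sum was 22.5 and 16.9 TPM, close to the 15.7, 17.3 and 16.9 TPM of saline libraries 1, 2 and 5, which had higher mitotic sums. The sum of 6 luteal and theca markers was 12.5, 13.9, 57.7, 364 and 41.1 TPM in saline libraries 1 to 5. In rmPRL libraries 1 to 5 it was 33.7, 418, 8.60, 6.84 and 20.5 TPM. This sum was higher in saline library 5 and rmPRL library 1 than in saline libraries 1 and 2, and lowest in rmPRL library 4. In saline library 5 and rmPRL library 1 most of it was Hsd3b1, at 28.4 and 20.7 TPM against 3.44 and 3.07 in saline libraries 1 and 2. Cyp11a1 had the same order, at 6.27 and 5.20 against 0.851 and 2.78 TPM. Star did not, at 5.65 and 7.26 against 7.83 and 7.44 TPM. The fibroblast sum over 6 markers was highest in rmPRL library 5, at 1976 TPM against 538 to 1359.5 in saline, and was 1390 TPM in rmPRL library 2. Mcm3 and Mcm5 were high in both of these rmPRL libraries, and higher in library 2. The 3 endothelial markers summed to 56.2 TPM in rmPRL library 2, each at its highest of all 10 libraries, against 23.2 to 42.3 in saline and 30.7 to 45.6 in the other rmPRL libraries. The sum of 6 leukocyte markers was 17.2, 15.6 and 16.4 TPM in rmPRL libraries 2, 3 and 5, above the 8.64 to 13.6 TPM of saline. It was 10.4 and 12.4 TPM in rmPRL libraries 1 and 4, within saline. The part of these cells in the results was not tested beyond leaving out the libraries.

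Some levels depend on how reads were shared between overlapping genes. On GENCODE vM21, 11 of the 38 genes share exonic bases with another gene, and 5 share over 10% of theirs: Gins2 (67.3%, with Gse1), Kif20a (29.3%, with Cdc23), Ube2c (22.8%, with Tnnc2), Ccne2 (17.4%, with Ints8) and Ccna2 (12.5%, with Exosc9), all on the opposite strand. The kit is stranded, but no source used here gives the strand setting of the counting, so these 5 are uncertain. Pcna has 2 named pseudogenes in that annotation, and Tyms, Ccnb1 and Ccnb2 have 1 each, with which reads could be shared.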

How the data were processed

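RNA was read from infundibula of mice given saline or rmPRL, 5 pooled libraries per group, stated at 80 M reads per sample with paired reads of 100 bases. The series text and, for tools, the submitters' processing notes state that reads were trimmed with Trimmomatic, aligned to mm10 with HISAT2 and assigned to genes with featureCounts. The authors deposited TPM for 54256 genes, with no counts, so depth and counting error are unknown and no count model was run. No source used here gives the route from counts to TPM or any scaling from library to library.

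The 16131 genes at 1 TPM or more in 5 or more of the 10 libraries were fitted as log2(TPM + 1) in R 4.3.3 with limma 3.58.1 (eBayes with trend and robust estimation, group as the only term), and p-values were adjusted over all of them by Benjamini-Hochberg; such differences understate changes of low genes, and errors are standard errors of the fit. The genes and lists were chosen with earlier results of these data known. Values in every library are given for Mki67, Top2a, Pcna, Mcm2 to Mcm7, Cdk1, Ccnb1 and E2f1, and for some others. Other lists are shown by up to 4 genes with the smallest p. Any further gene named was picked with its values known. No list was tested as a whole. The fit was checked on simulated data drawn gene by gene, so a library that stands apart over many genes was not covered. Promoter sequences are RefSeq's, on GRCm38.p6.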

Additional observations from a re-analysis of the deposited data

Results flagged for a closer look

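Of 76 sets of 5 libraries (38 genes in each group), 17 held 1 library far from the other 4, by Dixon's ratio at its 95% critical value, which chance passes in about 1 set of 20. In 14 of the 17 that library was rmPRL library 2, the library at diestrus with the highest sums of oocyte and granulosa markers. The mitotic genes concerned were Cdk1 (34.9 TPM, next 14.8), Ccnb1 (11.2 TPM, next 2.65), Ccnb2 (8.09 TPM, next 2.75), Plk1 (6.14 TPM, next 1.71), Kif11 (9.38 TPM, next 7.34), Nusap1 (5.09 TPM, next 1.58), Cenpe (2.85 TPM, next 1.09), Birc5 (17.4 TPM, next 4.17), Bub1 (3.65 TPM, next 0.821), Ube2c (11.9 TPM, next 3.49). The S phase genes were Cdt1 (7.03 TPM, next 4.11), Mcm7 (46.5 TPM, next 34.2), Rrm1 (29.9 TPM, next 22.9), Slbp (42.4 TPM, next 28.5). The other 3 sets were Ube2c in saline library 4 (4.12 TPM, next 2.07), Rrm1 in saline library 5 (25.9 TPM, next 22.5) and Pcna in saline library 2, which was low (72.8 TPM, next 85.6). The genes share libraries and vary together, so these are not separate events. Whether stage, ovarian RNA or another feature of rmPRL library 2 accounts for its levels was not tested.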

How the results depend on the processing

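No cell cycle gene passed the adjusted threshold under any of the 21 alternatives. Over all genes, 4 passed as reported, 0 with no filter on low values, 270 with array weights, 2 with the replicate block, 0 without saline 4 and rmPRL 2 together, and between 1 and 17 with single libraries left out. Mitotic genes at an unadjusted p under 0.05, 0 as reported, numbered 1 with array weights, 3 without saline 4 and rmPRL 2 together and 0 to 6 with single libraries left out (6 without rmPRL library 2); S phase genes numbered 0 to 2. With single libraries left out the median log2 difference ran from -0.15 to 0.13 over all members, from 0.021 to 0.26 over S phase and from -0.38 to 0.050 over mitotic genes. The labels do not say whether libraries of the same replicate number were handled as pairs. Same-numbered deviations correlated between -0.25 and 0.11, which cannot show how they were handled. The replicate block gave 0 cell cycle genes at either threshold.

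Only 12 genes were followed through the alternatives: Mki67, Top2a, Pcna, Mcm2 to Mcm7, Cdk1, Ccnb1 and E2f1. Among them, signs of the log2 differences changed for Mcm4, Mcm6, Mcm7, Mki67 and Top2a. Birc5, Ube2c and Kif11 went from 0.11, 0.10 and 0.08 to -0.41, -0.37 and -0.0045 without rmPRL library 2. Ccna2, Cdc20 and Bub1b kept their sign there. Mcm7 came to 8.5e-05 after quantile normalization, Mcm4 to -0.0033 with array weights and -0.022 without saline 4 and rmPRL 2 together, where Mcm6 came to -0.043 (limma log2 differences). A minimum of 5 TPM left Ccnb1, E2f1 and Mki67 untested. With single libraries left out the range was -0.020 to 0.071 for Mcm4, -0.080 to 0.20 for Mcm6, -0.12 to 0.0033 for Mcm7, -0.38 to 0.19 for Mki67 and -0.63 to 0.0073 for Top2a, the highest values of the last pair being those without rmPRL library 4 and the lowest those without rmPRL library 2. Apart from the settings that left libraries out, the cause of these changes was not tested. TPM keep no depth, so how far it limits the low genes is unknown.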
